A study of Mus musculus with 10 samples.

Results

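The genes described are the subunits of the transcription factor NF-kB and the proteins that restrain or tune it: Nfkb1, Nfkb2, Rel, Rela, Relb, Nfkbia, Nfkbie, Nfkbid, Nfkbiz and Tnfaip3. They were taken by symbol from the array annotation, using probe sets that carry 1 gene symbol and, where a gene had several, the one with the highest mean. Of the 10 symbols, 9 were found, each with 1 probe set, among 19938 genes. Nfkb1 had no probe set of its own in the annotation used and is not analysed here. Expression was measured on 10 Affymetrix arrays of RNA from CD4+ splenocytes of female mice aged 8 weeks, which had been isolated by bead sorting. The groups were NOD at T1 (2 arrays), NOD at T0 (3 arrays), B10 at T1 (2 arrays) and B10 at T0 (3 arrays), with the genotypes given as NODk and B10Br. T1 cells had received phorbol 12-myristate 13-acetate (PMA) at 10 ng/ml and ionomycin at 1 uM for 4 hours, and T0 cells are called basal. The protocol can also be read as 4 hours of culture without the drugs for T0, so the handling of T0 cells is not settled. Replicates are labelled biological, without the animals they came from, and p-values measure the spread between these samples. T1 replicate 1 of either strain is not analysed here. The B10 arrays of replicate 3 stood apart in 4 erythroid markers, with a mean log2 level of 9.29 at T1 and 9.15 at T0, against 7.45 at T1 and 7.76 and 6.89 at T0 on the other B10 arrays.

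NF-kB is a family of dimers built from the products of Rel, Rela, Relb, Nfkb1 and Nfkb2. In resting T cells the dimers Rela and Rel form with p50 are held in the cytoplasm by the classical IkB proteins, encoded by Nfkbia, Nfkbib and Nfkbie. T cell receptor signals, or the phorbol ester that stands in for them, act through protein kinase C on the IkB kinase. This kinase marks the IkB proteins for destruction. The freed dimers enter the nucleus and switch on, among others, the genes of their own inhibitors. The atypical IkB proteins, encoded by Nfkbid, Nfkbiz and Bcl3, act in the nucleus on bound NF-kB. Relb and the product of Nfkb2 form the alternative branch, which runs through the kinase encoded by Map3k14.

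Stimulation raised 7 of the 9 genes in NOD and 7 of the 9 in B10, and lowered none of the 9 in either strain. The risers were the same in both: Nfkbid, Nfkbiz, Nfkbia, Tnfaip3, Rel, Rela and Nfkbie. Of the 9, the nuclear IkB genes rose most, Nfkbid 6.79-fold in NOD and 5.32-fold in B10, and Nfkbiz 4.05-fold and 3.90-fold. Relb and Nfkb2, the pair of the alternative branch, did not pass the test in either strain. Between strains, Nfkbid at T0 was the only one of the 9 to pass, with a signal 1.61-fold lower in NOD than in B10. These calls are adjusted p-values below 0.05 in limma's moderated test with Benjamini-Hochberg adjustment over all 19938 genes. Of all genes, 16.1% were called higher after stimulation in NOD and 13.7% in B10, and 19.5% and 18.1% were called lower. Changes of the 9 genes had a median of 0.96 in NOD and 1.08 in B10 on the log2 scale, while over all genes tested it was 0.08 in NOD and 0.03 in B10.

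**Figure D1:**
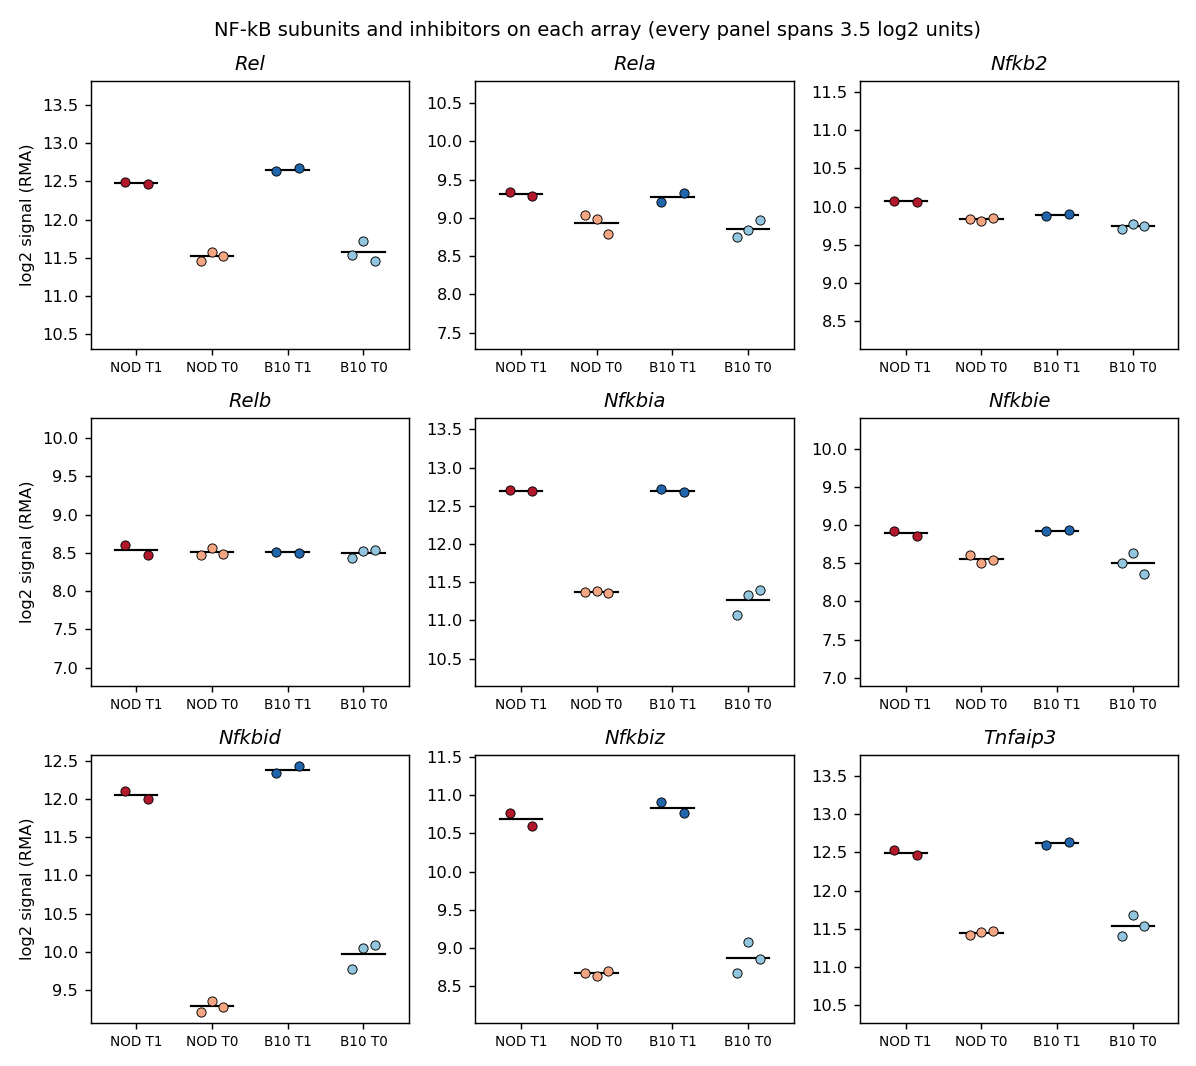
Values of the 9 genes on every array (y axis, log2 signal after RMA, 1 panel per gene), by group (x axis), with a point per array and a line at the group mean. The stimulated arrays stand above the unstimulated ones of the same strain for 8 genes, Relb being the exception, and Nfkbid at T0 is lower on the 3 NOD arrays (9.22 to 9.36) than on the 3 B10 arrays (9.78 to 10.09).

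The sequence before the transcription starts is shown here because genes of this family are known to answer to NF-kB itself. RefSeq windows (GRCm38.p6) were given for 7 of the 9 genes, with 12 annotated starts in all, and the 250 bases before each start were searched on both strands. The kB consensus, the letters NF-kB dimers bind, was found in 8 of the 12 windows (66.7%), and in 6 of the 7 genes. Among the windows of all genes, 2382 of 32851 (7.25%) held it. The AP-1 element TGANTCA was found in 3 of the 12 windows (25.0%), against 6.75% of all windows. The NFAT core GGAAA was found in 9 of the 12 windows (75%), against 55.6% of all windows, and in several of them it lies inside a kB match. The windows of the 7 genes had a median of 61.8% G and C bases, against 52.4% in all windows, and windows of 1 gene can overlap, so these shares are descriptions. A match shows that the letters are there, not that a factor was bound in these cells.

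Below are the windows of Rel, a subunit, and of Nfkbia and Tnfaip3, both inhibitors, all 3 at the gene's outermost annotated start and with every kB match in capitals. They show how a match can sit close to the start or further away. Rel is on the minus strand at chr11:23770970-23771219, Nfkbia on the minus strand at chr12:55492648-55492897, and Tnfaip3 on the minus strand at chr10:19015411-19015660. Each is written 5′ to 3′ on the gene's strand.
Rel: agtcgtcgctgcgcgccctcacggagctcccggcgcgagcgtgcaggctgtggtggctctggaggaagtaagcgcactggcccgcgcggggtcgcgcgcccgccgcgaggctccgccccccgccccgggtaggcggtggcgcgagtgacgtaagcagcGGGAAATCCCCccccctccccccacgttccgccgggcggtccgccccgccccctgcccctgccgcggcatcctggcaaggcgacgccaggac
Nfkbia: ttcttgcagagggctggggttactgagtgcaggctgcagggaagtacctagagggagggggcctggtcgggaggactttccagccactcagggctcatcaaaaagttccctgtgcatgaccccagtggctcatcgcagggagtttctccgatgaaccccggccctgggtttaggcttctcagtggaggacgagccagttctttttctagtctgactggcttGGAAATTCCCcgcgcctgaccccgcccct
Tnfaip3: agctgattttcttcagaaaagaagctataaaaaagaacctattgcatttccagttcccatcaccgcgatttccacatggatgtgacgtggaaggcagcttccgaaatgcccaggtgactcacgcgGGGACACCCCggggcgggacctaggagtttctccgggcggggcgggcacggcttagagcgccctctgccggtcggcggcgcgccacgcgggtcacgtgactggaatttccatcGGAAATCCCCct
The capitals of Rel hold overlapping matches on both strands between bases -92 and -82, counted back from the start. The match of Nfkbia lies at bases -29 to -20, and those of Tnfaip3 at -125 to -116 and -12 to -3. Tnfaip3 also carries an AP-1 element at bases -136 to -130.

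The remaining matches, 1 from each overlapping set, are given by their 10 bases, so that the variants of the motif can be set beside each other. Each is read 5′ to 3′ on the strand that matches the consensus.
Nfkbie, bases -106 to -97: GGGGGATTCC
Nfkbid, at the second start, bases -226 to -217: GGGACTTCCC
Nfkbid, at the second start, bases -181 to -172: GGGGAATTCC
Nfkb2, at the first start, bases -39 to -30: GGGAATTCCC
Nfkb2, at the first start, bases -11 to -2: GGGGCTTTCC
Nfkb2, at the second start, bases -236 to -227: GGGACATTCC
Nfkb2, at the third start, bases -225 to -216: GGGACTTTCC
Nfkbid held matches before 1 of its 3 starts, and Nfkb2 before all 3. These Nfkb2 starts lie 3743, 4701 and 4936 bases downstream of the gene's outermost annotated start, whose own window was not searched. Nfkb2 did not pass the stimulation test, and Rela, which did, held no match of any of the 3 motifs in its window.

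**Figure D2:**
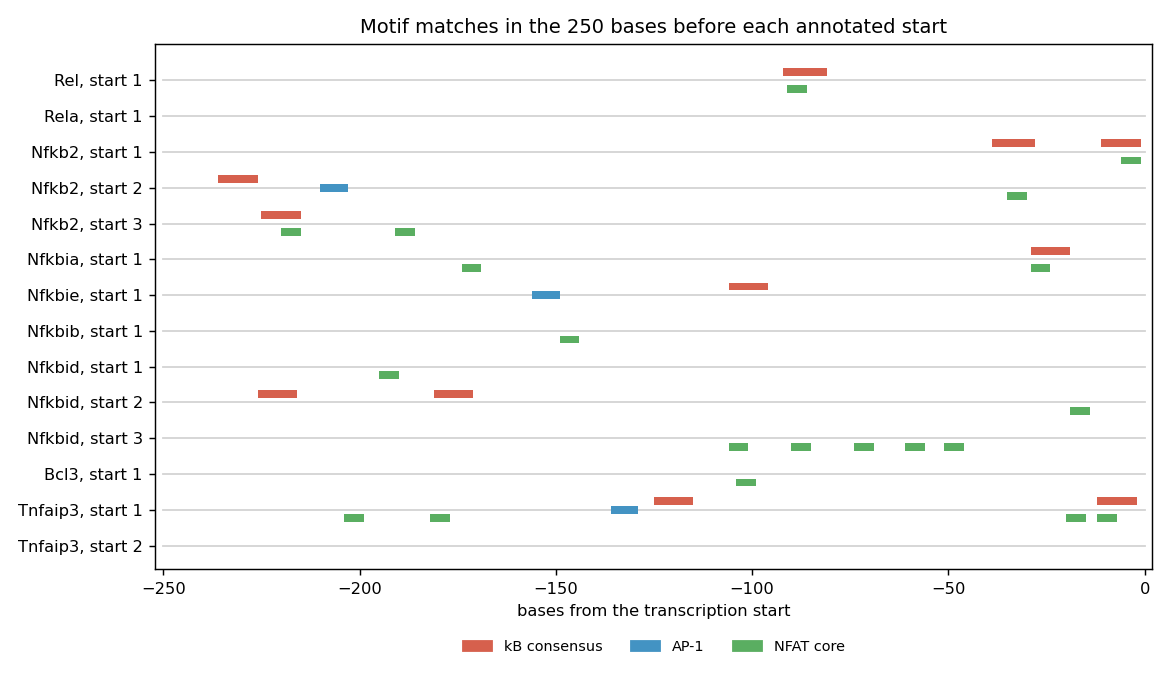
Matches of the kB consensus, the AP-1 element and the NFAT core (coloured boxes, both strands) by distance from the start in bases (x axis), with a line for each annotated start. Besides the 7 genes described, Nfkbib and Bcl3 are drawn. The kB matches lie before 8 of the 12 starts of the 7 genes, and before neither start of Nfkbib or Bcl3.

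Among the subunits, Rel was the one with the clearest rise. It encodes c-Rel, the subunit known for its part in T cell activation and in Il2 transcription. Rel had log2 signals of 12.49 and 12.47 on the NOD T1 arrays, against 11.46, 11.57 and 11.53 on the NOD T0 arrays. In B10 the values were 12.64 and 12.67 at T1, against 11.54, 11.73 and 11.46 at T0. All stimulated arrays were higher than all unstimulated ones. The change was 0.96 ± 0.10 (limma standard error, log2) in NOD (1.95-fold, adjusted p = 7.58e-06) and 1.08 ± 0.10 in B10 (2.12-fold, adjusted p = 2.77e-06).

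Rela encodes p65, a subunit with a strong activating domain and a main partner of p50. It had 9.33 and 9.29 on the NOD T1 arrays, against 9.04, 8.98 and 8.78 on the NOD T0 arrays. The B10 values were 9.21 and 9.33 at T1, against 8.75, 8.84 and 8.97 at T0. The states did not overlap within a strain, and the rise was small: 1.30-fold in NOD (0.38 ± 0.11, adjusted p = 0.0163) and 1.34-fold in B10 (0.42 ± 0.11, adjusted p = 0.00838). The call ended in NOD without T1 replicate 2 (0.35, adjusted p = 0.0701) or T0 replicate 3 (0.30, adjusted p = 0.072). In B10 it ended without T1 replicate 3 (0.36, adjusted p = 0.0818).

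Nfkb2 encodes p100, which is cut to p52 and, uncut, acts as an inhibitor itself. Its values were 10.08 and 10.06 on the NOD T1 arrays, against 9.84, 9.82 and 9.85 on the NOD T0 arrays. In B10 they were 9.88 and 9.90 at T1, against 9.71, 9.78 and 9.74 at T0. The states did not overlap in either strain, yet the difference missed the threshold in NOD (0.23 ± 0.09, 95% interval 0.04 to 0.42, adjusted p = 0.0548). It also missed it in B10 (0.15 ± 0.09, -0.04 to 0.34, adjusted p = 0.245). When arrays were scaled to a common 75th percentile the NOD value passed (0.36, adjusted p = 0.00853), and this scaling moved the NOD median over all genes by 0.13.

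Relb, the partner of p52, showed no change that could be told from 0. It had 8.60 and 8.47 on the NOD T1 arrays, against 8.47, 8.56 and 8.48 on the NOD T0 arrays. The B10 values were 8.51 and 8.50 at T1, against 8.43, 8.52 and 8.54 at T0. The arrays of the states overlapped in both strains. The 95% interval of the change ran from -0.17 to 0.23 in NOD and from -0.19 to 0.21 in B10, so a change as large as that of Rel lies outside it.

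Of the classical IkB genes, Nfkbia rose more than Nfkbie. Nfkbia encodes IkB-alpha, the inhibitor that is destroyed and made anew within an activation cycle. It had 12.70 and 12.69 on the NOD T1 arrays, against 11.37, 11.39 and 11.36 on the NOD T0 arrays. The B10 values were 12.72 and 12.68 at T1, against 11.08, 11.33 and 11.40 at T0. The stimulated arrays of both strains lay between 12.68 and 12.72, all above the unstimulated ones. The change was 1.33 ± 0.11 in NOD (2.51-fold, adjusted p = 6.58e-07) and 1.43 ± 0.11 in B10 (2.69-fold, adjusted p = 3.56e-07).

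Nfkbie encodes IkB-epsilon, an inhibitor that acts chiefly on dimers with Rel and Rela. It had 8.92 and 8.86 on the NOD T1 arrays, against 8.61, 8.50 and 8.54 on the NOD T0 arrays. In B10 it had 8.92 and 8.93 at T1, against 8.51, 8.64 and 8.36 at T0. The states did not overlap, and the rise was 1.27-fold in NOD (0.34 ± 0.10, adjusted p = 0.0195) and 1.34-fold in B10 (0.42 ± 0.10, adjusted p = 0.00531). In NOD the call ended without T1 replicate 2 (0.31, adjusted p = 0.0848) or T0 replicate 3 (0.33, adjusted p = 0.055).

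The genes of the nuclear IkB proteins had the largest changes of the 9. Nfkbid encodes IkB-NS, which partners p50 and is known for its part in Foxp3 induction and cytokine expression in T cells. It had 12.10 and 12.00 on the NOD T1 arrays, against 9.22, 9.36 and 9.28 on the NOD T0 arrays. In B10 it had 12.34 and 12.43 at T1, against 9.78, 10.06 and 10.09 at T0. All 4 groups were separate, in the order B10 T1, NOD T1, B10 T0 and NOD T0. The rise was 2.76 ± 0.11 in NOD (adjusted p = 4.75e-09) and 2.41 ± 0.11 in B10 (adjusted p = 9.59e-09). By absolute change it was number 62 of 19938 genes in NOD and number 128 in B10.

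Nfkbiz encodes IkB-zeta, which acts with p50 at secondary response genes and is known for its role in Th17 cells. It had 10.77 and 10.60 on the NOD T1 arrays, against 8.67, 8.64 and 8.70 on the NOD T0 arrays. The B10 values were 10.91 and 10.77 at T1, against 8.67, 9.08 and 8.86 at T0. Both states were far apart, while the strains overlapped within each state. The rise was 2.02 ± 0.12 in NOD (adjusted p = 6.43e-08) and 1.97 ± 0.12 in B10 (adjusted p = 7.64e-08).

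Tnfaip3 encodes A20, a ubiquitin-editing enzyme that shuts off signalling to the IkB kinase. It had 12.53 and 12.46 on the NOD T1 arrays, against 11.41, 11.46 and 11.48 on the NOD T0 arrays. In B10 it had 12.59 and 12.64 at T1, against 11.40, 11.69 and 11.53 at T0. The stimulated arrays were again higher than every unstimulated one. The rise was 1.05 ± 0.10 in NOD (2.07-fold, adjusted p = 3.74e-06) and 1.08 ± 0.10 in B10 (2.11-fold, adjusted p = 2.89e-06).

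Stimulated and unstimulated arrays did not overlap, with T1 higher, for 8 of the 9 genes in NOD and for 8 of the 9 in B10. Over all genes this held for 31% in NOD and 26.8% in B10. The calls of Nfkbid, Nfkbiz, Nfkbia, Rel and Tnfaip3 held in both strains under each of the 19 other settings tried, left-out arrays included. Leaving out an array of the other strain cannot move a difference within a strain, only its spread and adjustment. Without both B10 arrays of replicate 3, Rela (0.42, adjusted p = 0.0597) and Nfkbie (0.35, adjusted p = 0.0881) lost their call in B10, leaving 5 genes called there.

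**Figure D3:**
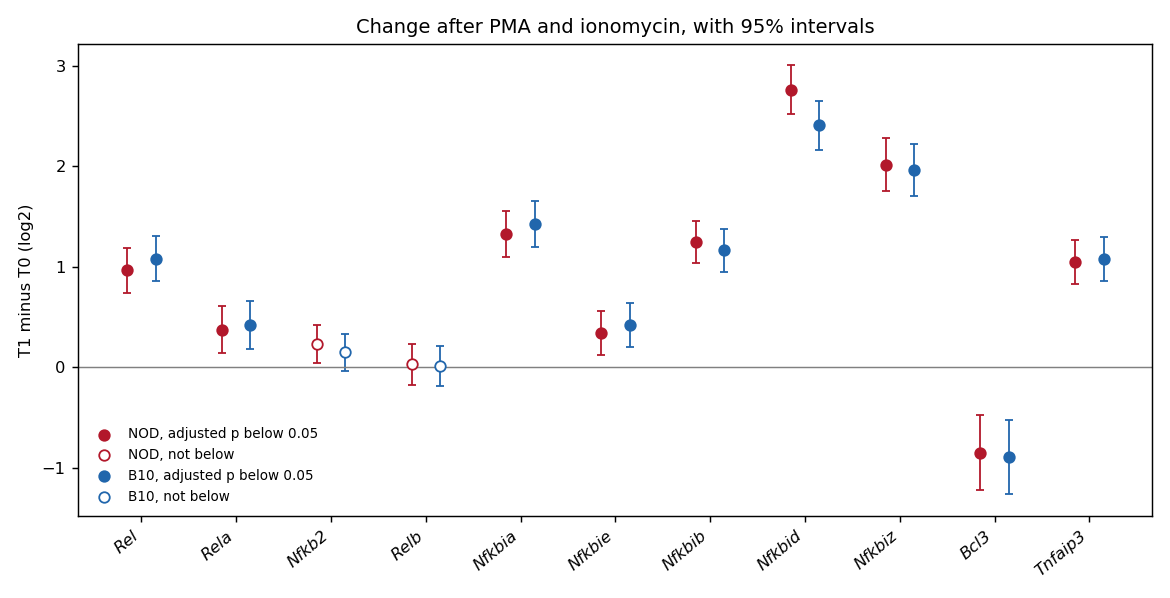
Change on stimulation (T1 minus T0, log2, y axis) for the 9 genes and the related Nfkbib and Bcl3 (x axis), with NOD left of B10. Points are differences of group means and bars are 95% intervals from limma, and open points did not pass an adjusted p of 0.05. Nfkbid and Nfkbiz lie at 1.97 to 2.76, Relb at 0.01 to 0.03, and Bcl3 below 0.

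Both remaining IkB family genes of the array moved in opposite directions. Nfkbib, which encodes the classical inhibitor IkB-beta, had 10.72 and 10.79 on the NOD T1 arrays, against 9.55, 9.50 and 9.46 on the NOD T0 arrays. It rose 2.38-fold in NOD (1.25 ± 0.10, adjusted p = 5.08e-07) and 2.24-fold in B10 (1.16 ± 0.10, adjusted p = 9.46e-07). Bcl3, the nuclear IkB that binds p50 and p52 dimers, had 6.87 and 7.16 on the NOD T1 arrays, against 7.74, 7.91 and 7.94 on the NOD T0 arrays. It fell in NOD (-0.85 ± 0.17, adjusted p = 0.00161) and in B10 (-0.89 ± 0.17, adjusted p = 0.0011). The nuclear IkB genes therefore did not move as 1 block, with Nfkbid and Nfkbiz higher and Bcl3 lower after stimulation.

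The signal of Nfkbid, read from 1 probe set, was lower in unstimulated NOD cells than in unstimulated B10 cells. Whether its probes bind the transcripts of both strains alike was not tested. The NOD T0 mean was 9.29 ± 0.07 and the B10 T0 mean 9.97 ± 0.17 (SD, n = 3 each), a difference of -0.69 ± 0.10 (95% interval -0.91 to -0.47, adjusted p = 0.00171). The highest NOD array (9.36) lay below the lowest B10 array (9.78). At T0, 1 of the 9 genes passed, while 5.79% of all genes were called in either direction and 2.35% lower in NOD. The call held under each of the 19 other settings, with values from -0.79 to -0.63, the last without both B10 arrays of replicate 3 (adjusted p = 0.00857). At T1 the NOD mean was 12.05 ± 0.08 and the B10 mean 12.39 ± 0.06 (SD, n = 2 each), without overlap. That difference, -0.34 ± 0.12 (95% interval -0.60 to -0.07), did not pass (adjusted p = 0.175). The response of Nfkbid in NOD minus that in B10 was 0.35 ± 0.16 (95% interval 0.01 to 0.70, adjusted p = 0.522), so a strain-dependent response was not shown.

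The other 8 genes did not pass between strains in either state. At T0 their differences, NOD minus B10, lay between -0.20 for Nfkbiz and 0.10 for Nfkbia. For Nfkbiz the 95% interval ran from -0.44 to 0.03, and for Nfkbia from -0.10 to 0.31. At T1 they lay between -0.17 for Rel (95% interval -0.42 to 0.07) and 0.18 for Nfkb2 (-0.03 to 0.38). None of the 9 passed at T1 in limma, with 1, Nfkbid, at an unadjusted p below 0.05, while 3.6% of all genes were called. The strains did not overlap for 2 of the 9 genes at T0 (Nfkb2 higher and Nfkbid lower in NOD) and for 4 at T1, against 22.8% and 41.8% of all genes. Nfkb2 was the gene whose 4 groups were separate with NOD above B10 in both states, yet its difference was 0.18 ± 0.09 at T1 (adjusted p = 0.393) and 0.09 ± 0.08 at T0 (adjusted p = 0.674).

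In the interaction of strain and stimulation none of the 9 passed, and 0.246% of all genes did. Only Nfkbid had an unadjusted limma p below 0.05. The remaining values lay between -0.12 for Rel (95% interval -0.43 to 0.19) and 0.08 for Nfkb2 (-0.18 to 0.35). For Nfkbia the interval ran from -0.43 to 0.22 and for Nfkbiz from -0.32 to 0.42.

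**Figure D4:**
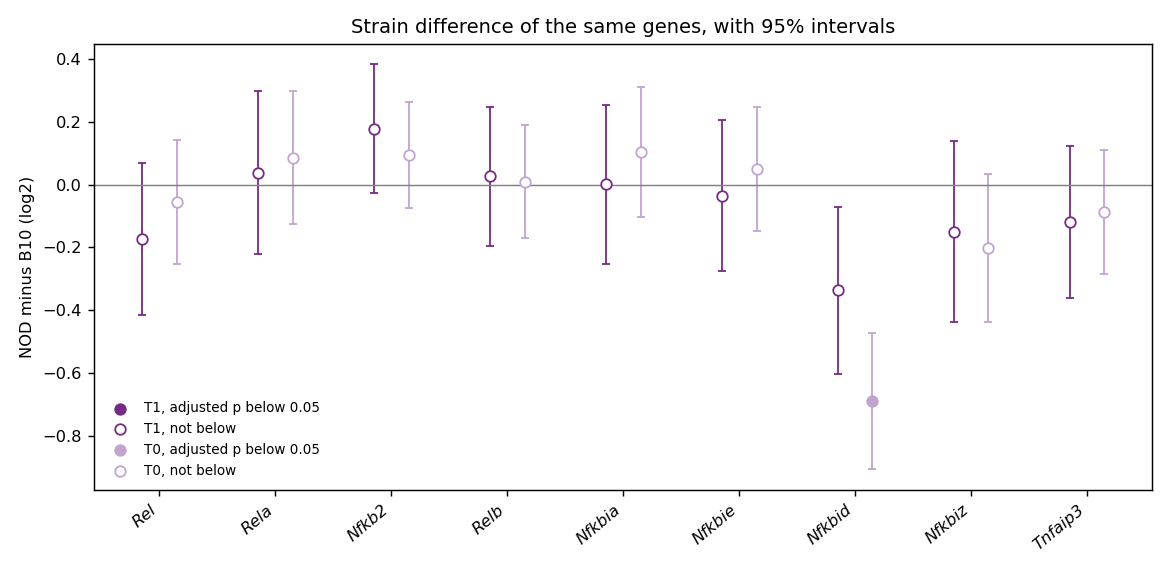
Difference NOD minus B10 (log2, y axis) of the 9 genes (x axis), with T1 left of T0, bars for 95% intervals from limma and filled points where the adjusted p was below 0.05. Nfkbid at T0 (-0.69) is the filled point, and all intervals but those of Nfkbid include 0.

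In the order of group means, both stimulated groups stood above both unstimulated ones for all 9 genes. For Relb the gap between the states was only 0.0026, and the arrays overlapped. Whether the strains were separate within a state differed between genes. For Nfkbid and Nfkb2 all 4 groups were separate, as given above. For Rela, Nfkbia, Nfkbie and Nfkbiz the arrays of both strains overlapped within T1 and within T0. For Rel and Tnfaip3 they overlapped at T0, while at T1 the NOD arrays lay below those of B10 by 0.17 and 0.12 in the mean, which did not pass. For Relb all 4 groups overlapped with their neighbours in the order.

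Genes whose values followed each member most closely were found by the root mean square difference of centred log2 values over the 10 arrays. This measure includes the difference between states, so a like change on stimulation follows from the choice and is no separate result. Nfkbid was followed most closely by Cd40lg, the CD40 ligand of helper T cells (0.17), and by Tbx21, the Th1 regulator (0.21). Cd40lg rose by 2.86 in NOD and 2.77 in B10, and Tbx21 by 3.15 and 2.47. Nfkbiz was nearest to Slc41a1, a magnesium transporter (0.09), and Egr2, a zinc finger factor of T cell activation (0.11). Nfkbia was nearest to Cct3, a chaperonin subunit (0.05), and Hsph1, a heat shock protein (0.07). The nearest to Rel were St13 (0.08) and Riok2 (0.09), and to Tnfaip3 Cad (0.07) and St13 (0.07). For members with small changes the nearest genes were Rexo1 and Ubqln1 for Rela, Ces1c and Cnpy3 for Nfkb2, and Abo and Tdrd12 for Relb. For Nfkbie they were Apmap and Tnpo3, and all these lay at 0.04 to 0.06.

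Genes of the canonical route, from the adaptors and ligases before the IkB kinase through its subunits to the ubiquitin ligase parts that act on IkB proteins, changed in both directions. Of 17 measured genes of the canonical route, 5 rose and 4 fell in NOD (median 0.04), and 4 rose and 4 fell in B10 (median -0.02). Over all genes, 16.1% rose and 19.5% fell in NOD, and 13.7% rose and 18.1% fell in B10. The same shares apply to the lists that follow. Traf6, a ubiquitin ligase, rose by 1.71 ± 0.11 in NOD and 1.49 ± 0.11 in B10. Ikbkb, which encodes the catalytic subunit IKK-beta, fell (-0.95 ± 0.13 in NOD and -1.18 ± 0.13 in B10). Sharpin, a subunit of the linear ubiquitin ligase, fell too (-0.86 ± 0.10 and -0.78 ± 0.10). Between strains at T1, where 3.6% of all genes were called, 1 of the 17 was higher in NOD and none lower. At T0, where 5.79% of all genes were called, 1 was higher and 1 lower. At T0 these were Btrc (0.55, adjusted p = 0.0396 in limma), which encodes the part of the ligase that recognises IkB and was named after its values were seen, and Ikbkb (-0.49, adjusted p = 0.0222).

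Of 11 measured genes of the alternative route and its receptors, 3 rose and 3 fell in NOD (median 0.04), and 3 rose and 2 fell in B10 (median -0.03). Tnfrsf4, the receptor OX40, rose by 1.33 ± 0.25 in NOD and 1.04 ± 0.25 in B10, and Tnfrsf9, the receptor 4-1BB, by 0.96 ± 0.22 and 1.07 ± 0.22. Birc2, which encodes a ubiquitin ligase that keeps the Map3k14 kinase low, fell (-0.96 ± 0.15 and -0.60 ± 0.15). Between strains, 1 of the 11 was lower in NOD at T1 and 2 were lower at T0, and none was higher. Over all genes, 3.6% were called at T1 and 5.79% at T0. Tnfrsf9 was among them in both states, lower in NOD than in B10 at T1 (-1.03) and at T0 (-0.93).

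Negative regulators other than the 9 genes moved in both directions. Of 15 measured, 4 rose and 6 fell in NOD (median 0.00), and 4 rose and 4 fell in B10 (median 0.10). Cyld, a deubiquitinase that limits NF-kB signalling, had 8.21 and 8.01 on the NOD T1 arrays, against 10.21, 10.22 and 10.17 on the NOD T0 arrays. It fell 4.26-fold in NOD (-2.09 ± 0.10, adjusted p = 1.31e-08) and 3.93-fold in B10 (-1.98 ± 0.10, adjusted p = 1.88e-08). Tnip1 and Tax1bp1, which encode partners of A20, fell as well, with changes of -1.62 in NOD and -1.44 in B10 for Tnip1 and of -1.01 and -0.69 for Tax1bp1. Tnip3, another A20-binding protein gene, rose (1.55 ± 0.26 and 2.12 ± 0.26), and so did Tank, an adaptor of TRAF proteins (1.00 ± 0.19 and 1.55 ± 0.19).

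Genes reported elsewhere as NF-kB targets mostly rose. Of 30 measured, 24 rose and 3 fell in NOD (median 1.67), and 23 rose and 3 fell in B10 (median 1.52). Many of them also answer to NFAT and AP-1, which the same drugs activate, so the list is not specific to NF-kB. Among the largest rises were those of Il2 (5.16 in NOD and 6.10 in B10), Ccl4 (4.32 and 4.04) and Csf2 (3.03 and 4.37), cytokine and chemokine genes, and of Il2ra, the IL-2 receptor alpha chain (3.29 in NOD and 3.14 in B10). Ltb, which encodes lymphotoxin-beta, a ligand that activates the alternative branch, fell (-2.70 ± 0.13 in NOD and -3.27 ± 0.13 in B10). Between strains at T0, 4 of the 30 were higher and 3 lower in NOD, where 5.79% of all genes were called. At T1, 1 was higher and 3 were lower, against 3.6% of all genes. Csf2 was lower in NOD at T1 (-1.52, adjusted p = 0.000239 in limma). In the interaction of strain and stimulation 1 of the 30 passed, with a lower response in NOD, against 0.246% of all genes.

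**Figure D5:**
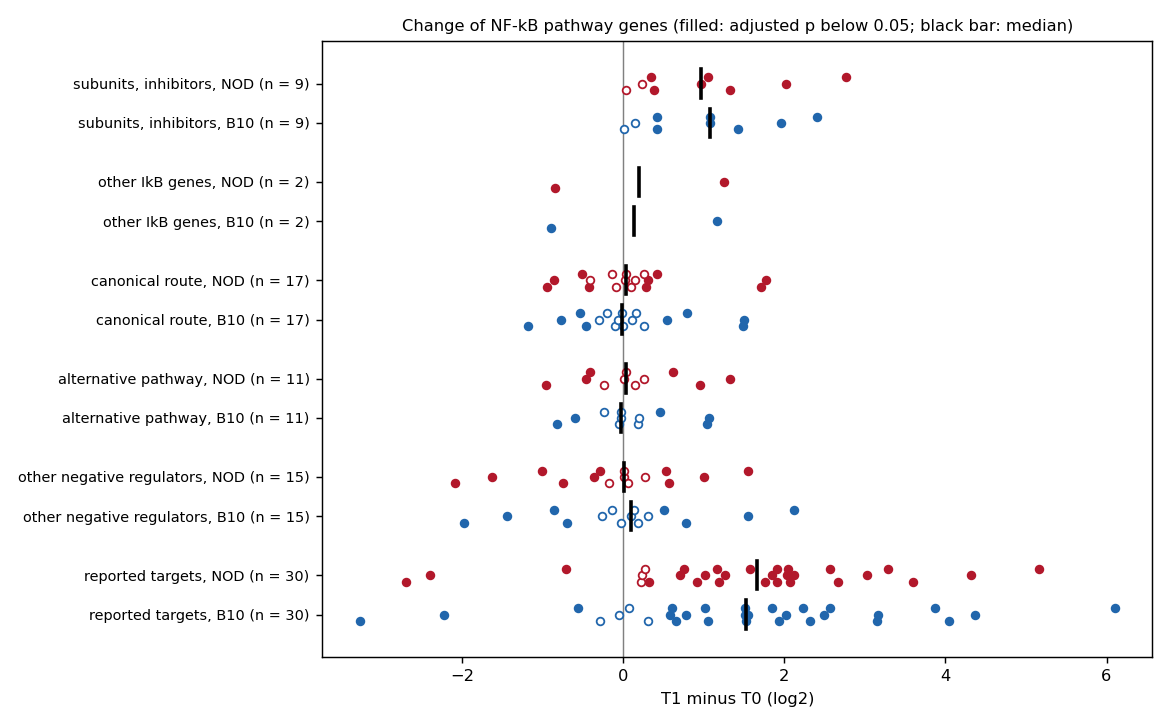
Change on stimulation (T1 minus T0, log2, x axis) of each measured gene in the lists named on the y axis, NOD above B10 within a list. Each point is a gene, filled where the adjusted p was below 0.05, and black bars are medians. The 9 subunit and inhibitor genes lie above 0 (0.03 to 2.76 in NOD, 0.01 to 2.41 in B10), while the canonical and regulator lists spread to both sides.

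Markers of several cell types, though not of all, moved with the same contrasts. The mean log2 level of 7 CD4 T cell markers was 9.36 to 9.68 on NOD T1 arrays and 10.34 to 10.46 on NOD T0 arrays, and 9.62 to 9.72 and 10.46 to 10.49 in B10. Of these 7, 1 rose (Cd5) and 4 fell in NOD, and none rose and 4 fell in B10. The mean of 8 B cell markers was 7.14 on both NOD T1 arrays and 8.49 to 8.80 on NOD T0 arrays, and 7.31 to 7.36 and 8.22 to 8.49 in B10, with none rising and 6 of 8 falling in NOD, and 1 rising (Cr2) and 5 falling in B10. Of 10 monocyte and macrophage markers, 9 fell in NOD and 8 in B10 on stimulation, and none rose. Of 8 neutrophil markers, 7 fell in NOD and 5 in B10, and none rose. At T0, where Nfkbid was lower in NOD, 7 of those 10 were higher in NOD (mean of the list 7.82 to 8.09, against 7.09 to 7.48 in B10). So were 4 of 8 neutrophil markers (6.64 to 6.93, against 5.97 to 6.45) and all 4 erythroid markers measured (9.96 to 10.57, against 6.89 to 9.15). The 3 NOD T0 arrays had Nfkbid values of 9.22 to 9.36, against 9.78 and 10.06 on the B10 T0 arrays with lower erythroid markers (replicates 1 and 2) and 10.09 on the third. Other markers were lower in NOD at T0, as Nfkbid was: 2 of 6 NK cell markers (mean of the list 4.76 to 4.85, against 5.10 to 5.17 in B10), with Klrb1c at -1.23 and Klrk1 at -0.46, and 1 of 2 CD8 T cell markers (6.85 to 6.98, against 7.13 to 7.35), Cd8b1 at -0.49. Of 8 B cell markers 1, Cr2, was higher in NOD at T0, and no CD4 T cell or dendritic cell marker passed there. On stimulation 1 of 7 dendritic cell markers rose (Zbtb46) and 5 fell in NOD, and none rose and 4 fell in B10. Of 6 NK cell markers, 2 fell in NOD and 2 in B10, and none rose. Of 2 CD8 T cell markers, 1 fell in NOD and 2 in B10, and none rose. None of the 4 erythroid markers passed on stimulation in either strain. The markers named here were chosen after their values were seen. B cells and myeloid cells also express NF-kB genes, and the part of these cells in the results was not tested. In such mixed samples fewer cells of a type and less RNA per cell cannot be told apart.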

How the data were processed

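The authors deposited log2 signals per probe set, made with RMA in Affymetrix Power Tools, per the submitters' processing notes. Versions and options are not given in the sources used here, and base 2 was taken from their spread. RMA brings the probe intensities of all arrays to one distribution, so a change is relative to the other genes, and changes of dim genes are understated. The values per probe set did not share exactly one distribution, with array 75th percentiles between 7.73 and 7.94. Detection calls are not used here. Array medians lay between 6.18 and 6.23, and pairs of arrays correlated at 0.985 to 0.993 (Pearson's r) in the same group and at 0.943 to 0.984 otherwise. Of 35486 probe sets, 21789 had 1 symbol, 1621 several and 12076 none listed. The number of arrays limits the precision.

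All 10 arrays entered 1 limma 3.58.1 model (R 4.3.3) with a mean per group, eBayes and two-sided tests, with 6 residual and 6.30 prior degrees of freedom. There were 5 contrasts, each adjusted over 19938 genes. The procedure was tested on simulated data with independent arrays, which cannot show how pairing or mixed cell types would act on it. The genes, the lists and the alternatives were chosen with earlier results of these data known. From each further list, up to 6 genes with the largest change on stimulation could be named. For each member, 2 genes of like pattern were named, leaving out predicted genes. Promoter letters and positions are from RefSeq (GRCm38.p6). The array table names no build. Protein sequences were planned but are not used here, and some genes of the lists are not reported here by name. Figures were drawn with matplotlib 3.10.9.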

Additional observations from a re-analysis of the deposited data

How the results depend on the processing

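Over all contrasts, the 9 genes gave 846 values under other settings: 802 kept direction and call, 7 lost a call, 3 gained one and 34 changed sign without passing before or after. No called value changed sign. Some of the settings cannot move a difference, such as leaving out an array of a group not compared. The gains were Nfkb2 in NOD with one 75th percentile, with only the brighter genes (adjusted p = 0.0203) and with trend and robust settings (0.0238). The number of the 9 genes called on stimulation ranged from 5 to 7 in B10 and from 5 to 8 in NOD.

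Counts over all genes moved more. Between strains at T0, 1155 genes were called, 2316 with array weights and 571 to 1306 without 1 array. At T1 there were 718, 292 with array weights, 128 with only the arrays compared, and 184 to 889 without 1 array. In the interaction there were 49, 31 with one 75th percentile, 102 with trend and robust settings, 31 with array weights, 90 with a replicate block and 13 to 69 without 1 array. The causes were not tested. On stimulation in NOD, one 75th percentile gave 5393 higher and 3145 lower calls, against 3201 and 3884.

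Replicate numbers recur across states, but the labels do not say that a number marks 1 animal. Correlations of same-numbered T1 and T0 deviations were -0.01 and 0.22 in NOD and 0.41 and 0.40 in B10. All but the lowest lay above the minimum of 0.1 set for pairing. The T1 deviations within a strain mirror each other, so its correlations are not independent. The mean level of the erythroid markers was highest on replicate 3 in both states of both strains. These values do not settle whether same-numbered arrays belong together, and the main model used no pairing. The replicate block changed no call of the 9 genes, with 7 called in NOD and 7 in B10. A lone T1 array left by an omission was assumed to vary like the other groups. Mean of all probe sets changed no value of the 9 genes, which have 1 probe set each.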
